A study of Mus musculus with 30 samples.

Results

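CCL206 fibroblasts that had been grown in lung organoids with the IPF cocktail (IPFc) were compared with CCL206 fibroblasts from organoids grown with vehicle. The comparison used every count library labelled with the cell line CCL206 and the treatment IPFc (4 libraries, mice 1, 2, 3 and 4) or Vehicle (3 libraries, mice 1, 3 and 4), which made 7 of the 30 libraries analysed here, and 3 mice had both. Each culture mixed equal numbers of primary Epcam+ epithelial cells, isolated from the lungs of 1 wild-type adult C57BL/6J mouse, with CCL206, an established line of mouse lung fibroblasts whose division had been stopped with mitomycin C. After 72 hours in Matrigel with the treatment, the organoids were taken apart and sorted anew by Epcam, and the Epcam- cells gave the fibroblast libraries and the Epcam+ cells the epithelial libraries. All cultures held the same fibroblast line, so that the mouse number stands for the donor of the epithelial cells and for the culture, not for a fibroblast donor. IPFc held 9 factors that are raised in lungs with idiopathic pulmonary fibrosis (TGF-β, TNF-α, TSLP, CCL2, IL-33, IL-13, IL-4, IL-1β and IL-8), at concentrations that the sources used here do not give. Fibroblast libraries of the same mice treated with TGF-β alone (2 ng/ml, 4 libraries) or with the exacerbation cocktail (EC, which held IL-6, TNF-α, IL-1β and IL-8, given to mouse cells as KC, 4 libraries) served as reference treatments, and the fibroblast vehicle culture of mouse 2 was not analysed here. The vehicle is not described further in the labels.

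Idiopathic pulmonary fibrosis is a scarring disease of the lung in which fibroblasts deposit collagen and turn into contractile myofibroblasts. TGF-β is the best known driver of that change through SMAD proteins, IL-4 and IL-13 act through the IL-4 receptor alpha chain and the transcription factor STAT6, and IL-1β and TNF-α act through NF-κB. The comparison asked which of these programmes could be seen in the fibroblasts after 3 days with all 9 factors, and which genes separated the cocktail from TGF-β given alone.

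The 7 libraries held 12710217 to 16769349 counted reads (5113828 to 18447405 over all 15 fibroblast libraries, the lowest in the EC library of mouse 1). Values are given per library as CPM, each gene's reads scaled to a common library total, which compares libraries but not genes of different length, and limits drawn from the read totals cover counting error only. The defining fibroblast genes Col1a1, Col1a2, Col3a1, Pdgfra, Vim and Fn1 were present in all 7 libraries, Thy1 had no read in 6 of the 7, and the sum of 15 fibroblast markers lay between 16392 and 22067 CPM against 1055 to 3116 CPM in the epithelial libraries. Leukocyte markers summed to 61.1 to 93.0 CPM, of which 35.0 to 66.8 CPM came from Cd14, a gene with a higher level in the epithelial libraries, and Ptprc, Adgre1 and Csf1r averaged under 1 CPM in either group. Cd68 was at 7.74 to 11.9 CPM and Coro1a at 3.15 to 7.08 CPM. Their epithelial means were 5.31 and 0.757 CPM with vehicle and 5.47 and 1.46 CPM with IPFc. Of the 19 leukocyte markers tested, 15 had their higher level in the fibroblast libraries. Endothelial markers summed to 13.2 to 19.8 CPM.

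Epithelial RNA was a large part of these libraries. Its share was estimated as the median ratio of epithelial markers between a fibroblast library and the epithelial library of the same mouse and treatment. It was 20.4, 18.5 and 32.9% in the vehicle libraries of mice 1, 3 and 4 and 12.5, 19.4, 20.6 and 32.3% in the IPFc libraries of mice 1 to 4. The groups overlapped, with means of 23.9% ± 7.83 (SD, n = 3) and 21.2% ± 8.18 (SD, n = 4), a difference of -2.73 percentage points (exact two-sided permutation test, p = 0.743, 35 permutations). That test did not use the mouse pairs, and so few libraries cannot show that the shares were equal. All 30 epithelial markers were tested as single genes and 29 had a log2 fold change below 0 in IPFc against vehicle (median -0.43), while 0 of 30 passed the adjusted test of edgeR and 9 of 30 had an unadjusted p under 0.05. The share lay outside the range of the vehicle libraries for the reference treatments, with 0.955 to 4.35% under TGF-β and 41.4 to 60.7% under EC. Single markers lay far from the median ratio. With vehicle, Krt19 and Krt7 averaged 618 and 1139 CPM in fibroblast libraries against 3591 and 6832 CPM in epithelial libraries. Sftpc, Ager and Lyz2 averaged 2990, 188 and 79.3 CPM against 4058, 223 and 59.7 CPM. The share is 1 value per library, so parts and subtractions based on it do not hold for genes far from the median. In bulk RNA, fewer cells of a type and less RNA per cell cannot be told apart.

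**Figure D1:**
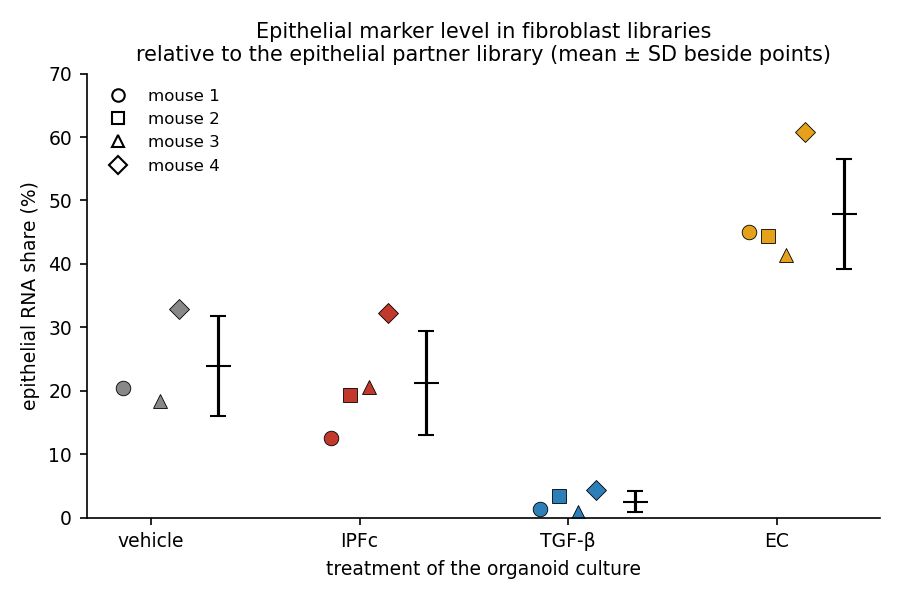
Each point is 1 fibroblast library, with the share of epithelial RNA in percent on the vertical axis, the treatment on the horizontal axis, the mouse given by the symbol, and the mean with SD beside the points. The 3 vehicle libraries (18.5 to 32.9%) and 4 IPFc libraries (12.5 to 32.3%) overlap, with the IPFc library of mouse 1 below every vehicle library, while the TGF-β libraries lie below 5% and the EC libraries above 40%.

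Of 18048 genes tested, 81 were differentially expressed genes (DEGs) between IPFc and vehicle at an adjusted p below 0.05 (0.449% of those tested), 55 of them higher (0.305%) and 26 lower (0.144%) with IPFc. The test was edgeR's quasi-likelihood test over all 15 fibroblast libraries with the mouse as a block. Of the 81, 55 changed by more than 1 on the log2 scale (42 higher, 13 lower), all 81 had the same direction in the 3 mouse pairs, and the libraries of both groups did not overlap for 75, against 6.68% of all genes tested. The 81 were selected on these same libraries, so neither count is separate support for them. At an unadjusted p below 0.05 there were 1174 genes. The count changed with the libraries that entered. It was 128, 51, 14 and 15 with mouse 1, 2, 3 or 4 left out, and 263 without the EC library of mouse 1, which belongs to neither group but enters the estimates of the spread and of the mouse effect. Leaving out a mouse removed all its libraries and left 5 or 6 residual degrees of freedom against 8. The cause of these changes was not tested. The 8 genes that passed with each mouse left out in turn were Ivl, Itgb3, Dmp1, Sema7a, Slc26a4, Chil4, Clca1 and C4b. After the epithelial share was subtracted from each library, 1 gene passed, Ivl, while Spp1, C3, Itgb3 and C4b had log2 fold changes of 1.05, 1.06, 1.35 and -1.24 that did not (adjusted p = 0.129, 0.345, 0.0594 and 0.0609). The DEGs were also divided by the fraction in which their level was higher over the vehicle and IPFc cultures. The fibroblast libraries had the higher level for 56 DEGs (39 higher and 17 lower with IPFc, 0.561% of 9980 such genes), and the epithelial libraries for 25 (16 higher and 9 lower, 0.31% of 8068). The IPFc levels enter this division, so that the change itself can decide it. With vehicle alone, Ivl (7.89 CPM in fibroblast and 7.91 CPM in epithelial libraries) and Htr1b (8.17 and 8.70 CPM) had no higher mean in fibroblasts, and Grm7 was near 0 in both.

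**Figure D2:**
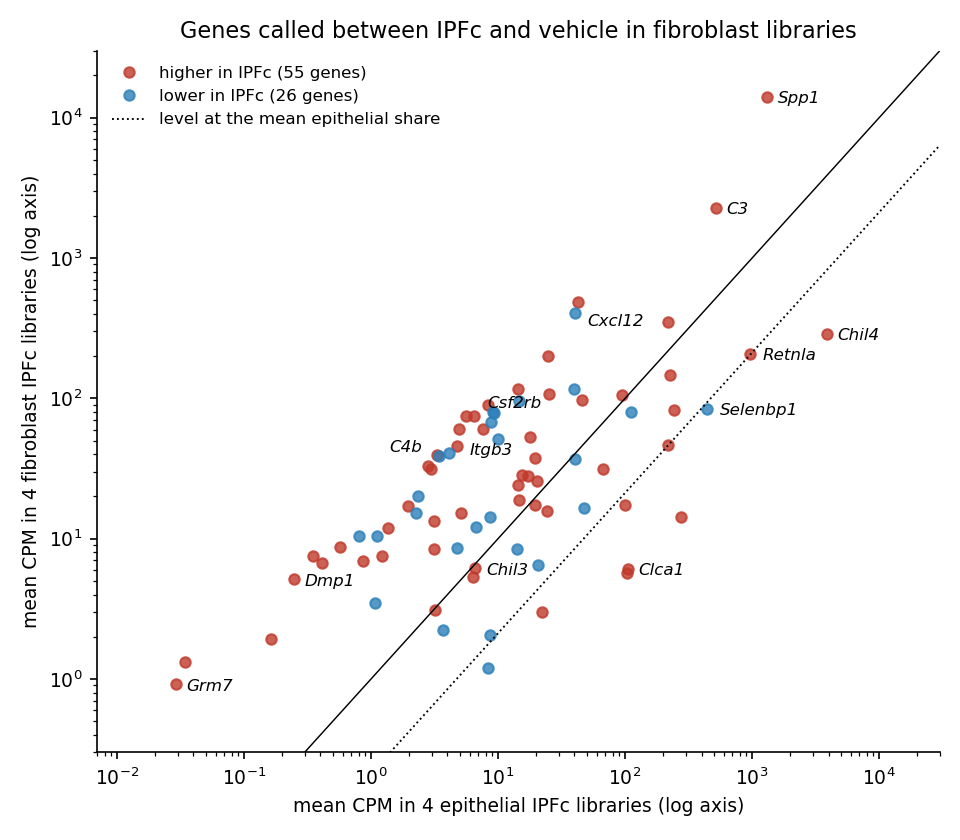
Each point is 1 of the 81 DEGs, with its mean CPM in the 4 epithelial IPFc libraries on the horizontal and in the 4 fibroblast IPFc libraries on the vertical log axis, where the solid line marks equal levels and the dotted line the level that an epithelial share of 21.2% alone would give. Spp1, C3, Itgb3, Csf2rb and C4b lie above the solid line, whereas Chil4 and Clca1 lie below the dotted line and Retnla and Selenbp1 close to it.

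The DEGs that were higher with IPFc and higher in fibroblasts than in epithelium included secreted matrix and mineral-binding proteins, an integrin, cytokine and neuropeptide receptors and complement C3. Spp1 encodes osteopontin, an acidic secreted glycoprotein that binds integrins. It was measured at 7528, 7042 and 6325 CPM in the vehicle libraries of mice 1, 3 and 4 and at 14180, 13856, 14692 and 13675 CPM in the IPFc libraries of mice 1 to 4, a log2 fold change of 1.09 ± 0.17 (SE, adjusted p = 0.00473, edgeR). The groups were far apart, and the 4 IPFc libraries differed from each other by less than the 3 vehicle libraries did. Itgb3 encodes the integrin β3 chain, which pairs with αv in a receptor for osteopontin and other ligands. Its levels were 16.9, 19.0 and 19.0 CPM with vehicle and 44.9, 40.7, 53.5 and 42.9 CPM with IPFc (log2 fold change 1.39 ± 0.14, adjusted p = 1.3e-04). Every IPFc library held more than any vehicle library, and the level in epithelial libraries averaged 1.52 CPM with vehicle and 4.73 CPM with IPFc. Dmp1, dentin matrix protein, is an acidic phosphoprotein of bone matrix whose gene lies near Spp1 on chromosome 5 (RefSeq, GRCm38.p6: chr5:104197575-104214102 for Dmp1 and chr5:104435111-104441053 for Spp1). It was low but detected in each vehicle library (0.944, 2.01 and 1.22 CPM) and reached 4.54, 4.27, 6.98 and 4.73 CPM with IPFc (log2 fold change 2.00 ± 0.28, adjusted p = 0.00228). Without mouse 3 or mouse 4, Spp1 no longer passed the test (adjusted p = 0.134 and 0.1002), while Itgb3 and Dmp1 did.

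Receptors formed the next group. Csf2rb, the β chain shared by the receptors for GM-CSF, IL-3 and IL-5, was at 38.2, 24.9 and 26.8 CPM with vehicle and at 96.0, 77.2, 66.4 and 58.0 CPM with IPFc (log2 fold change 1.32 ± 0.16, adjusted p = 7.7e-04). Calcrl, the receptor that forms the CGRP and adrenomedullin receptors with RAMP proteins, was at 21.1, 25.4 and 16.8 CPM and at 66.8, 75.4, 45.3 and 55.1 CPM (log2 fold change 1.46 ± 0.19, adjusted p = 9.9e-04). Both genes kept the groups apart in every library, and both were low in epithelial IPFc libraries, at 6.51 and 4.96 CPM on average. Htr1b, a serotonin receptor, rose by 1.21 ± 0.15 (adjusted p = 9.9e-04) from 7.05 to 8.90 CPM with vehicle to 13.9 to 20.8 CPM with IPFc. Grm7, a glutamate receptor, had 0 reads in the 3 vehicle libraries and 52 reads over the 4 IPFc libraries (0.674 to 1.24 CPM), at least 12.6-fold higher against a floor of 3 reads over the vehicle group (adjusted p = 0.00681). Without mouse 3, Csf2rb, Htr1b and Grm7 did not pass (adjusted p = 0.0792, 0.0907 and 0.173), and without mouse 4, Calcrl and Grm7 did not (adjusted p = 0.112 and 0.208).

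C3, the central complement component, was measured at 1026, 1037 and 1142 CPM with vehicle and at 2408, 2445, 2345 and 1964 CPM with IPFc (log2 fold change 1.07 ± 0.16, adjusted p = 0.00463). The epithelial share times the epithelial level accounted for 3.17 to 7.03% of these IPFc values. C4b, a component of the classical pathway that acts before C3, went the other way, with 85.8, 88.1 and 91.2 CPM in vehicle libraries and 37.4, 39.6, 41.4 and 36.4 CPM in IPFc libraries (log2 fold change -1.21 ± 0.13, adjusted p = 2.2e-04). Neither gene had overlapping groups, although C3 lost its call without mouse 3 (adjusted p = 0.168) or mouse 4 (adjusted p = 0.0987). C4b has a closely similar neighbour gene, and how reads shared by such copies were counted is not described. Of the 19 complement genes tested, C3 rose and C4b fell, beside 0.305% of all genes called higher and 0.144% called lower. By edgeR 7 of the 19 had an unadjusted p below 0.05, beside 1174 of all 18048 genes. The list's median log2 fold change was -0.05 against -0.003 for all genes tested.

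The remaining genes of this group were Ivl, Unc13a and Slco4a1. Ivl encodes involucrin, a protein of the keratinocyte envelope, and had the smallest p of the genes whose level was higher in fibroblasts. It was at 8.18, 8.90 and 6.60 CPM with vehicle and 21.6, 23.6, 30.6 and 20.1 CPM with IPFc (log2 fold change 1.61 ± 0.16, adjusted p = 9.4e-05). Epithelial libraries averaged 14.2 CPM with IPFc, and the epithelial share accounted for 7.79 to 24.2% of the fibroblast values. Unc13a, a priming factor of vesicle release, was at 8.65 to 15.3 CPM with vehicle and 31.0 to 34.2 CPM with IPFc. Slco4a1, an organic anion transporter, overlapped between the groups (12.0, 22.8 and 40.8 CPM with vehicle, 33.2, 44.1, 60.2 and 73.7 CPM with IPFc) but was higher in each mouse pair (log2 fold change 1.22 ± 0.17, adjusted p = 0.0022). Both lost their call without mouse 3 (adjusted p = 0.0999 and 0.134).

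Only 7 DEGs that were higher in fibroblasts fell by more than 1 on the log2 scale. Besides C4b these were Ptn, Tnxb, Ces1g, Negr1, Gbp3 and Scara5. Ptn encodes pleiotrophin, a heparin-binding growth factor, and was at 33.1, 22.3 and 20.3 CPM with vehicle and 8.50, 10.1, 7.63 and 8.06 CPM with IPFc (log2 fold change -1.56 ± 0.24, adjusted p = 0.00498). Tnxb, the matrix glycoprotein tenascin X, was at 40.4, 46.4 and 52.0 CPM against 12.1, 20.2, 29.4 and 19.1 CPM (log2 fold change -1.30 ± 0.22, adjusted p = 0.00915). The highest IPFc library stayed below the lowest vehicle library for both genes. Scara5, a scavenger receptor that takes up ferritin, changed by -1.61 ± 0.33 (adjusted p = 0.0416), Ces1g, a carboxylesterase, by -1.29 ± 0.20, Gbp3, an interferon-induced GTPase, by -1.11 ± 0.20, and Negr1, a neural adhesion molecule, by -1.02 ± 0.17. Negr1 alone of the 7 had overlapping groups. Of the 7, C4b and Tnxb passed without mouse 3 (the others had adjusted p = 0.134 to 0.458) and C4b without mouse 4 (0.130 to 0.631). Negr1, Gbp3 and Scara5 did not pass without mouse 2 either (adjusted p = 0.0527, 0.0915 and 0.153).

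**Figure D3:**
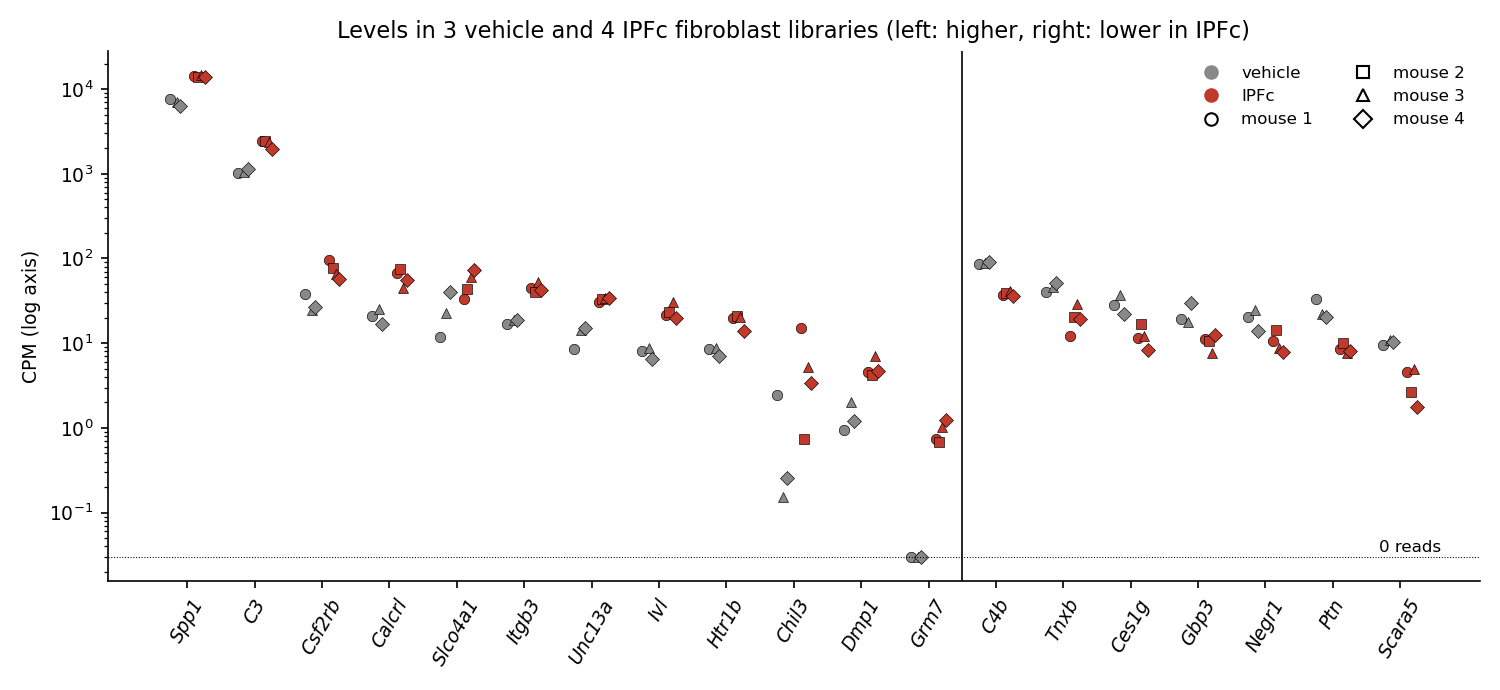
Each point is the CPM of 1 gene in 1 library on a log axis, for the 12 genes with the smallest p that were higher (left of the line) and the 7 that were lower (right) with IPFc and had their higher level in fibroblasts, with vehicle in grey, IPFc in red and the mouse given by the symbol. Spp1 and C3 have the highest levels, Grm7 had 0 reads in every vehicle library, and groups overlap for Chil3, Slco4a1 and Negr1.

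Of 21 genes of the IL-4 and IL-13 response tested, 3 were higher with IPFc (Chil4, Chil3 and Retnla, beside 0.305% of all genes) and 0 were lower. By edgeR 10 had an unadjusted p below 0.05, beside 1174 of all 18048 genes. The median log2 fold change was 0.30 against -0.003 for all genes tested. The level was higher in fibroblasts for 12 of the 21. Chil3 and Chil4 are neighbouring genes for chitinase-like proteins, Ym1 and Ym2, and Retnla encodes resistin-like alpha, and all 3 are classical genes of type 2 immune responses in the mouse lung. The sequences before their starts are shown because they hold the letters that STAT proteins are known to bind, TTC and GAA with a gap of 3 or 4 bases. The 250 bases before the annotated start (RefSeq, GRCm38.p6) are given 5′ to 3′ on the strand of the gene, with the match in capitals.

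Retnla, chr16:48842359-48842608, plus strand: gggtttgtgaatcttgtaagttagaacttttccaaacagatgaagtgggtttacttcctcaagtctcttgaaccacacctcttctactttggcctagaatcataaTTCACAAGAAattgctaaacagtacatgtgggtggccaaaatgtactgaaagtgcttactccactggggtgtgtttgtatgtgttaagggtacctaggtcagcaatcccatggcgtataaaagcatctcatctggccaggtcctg
Chil3, chr3:106167565-106167814, minus strand: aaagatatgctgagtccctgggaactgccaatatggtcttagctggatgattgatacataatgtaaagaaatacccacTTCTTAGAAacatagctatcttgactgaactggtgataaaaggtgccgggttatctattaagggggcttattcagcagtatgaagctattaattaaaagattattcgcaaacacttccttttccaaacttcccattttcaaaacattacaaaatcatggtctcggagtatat
Chil4, chr3:106219480-106219729, minus strand: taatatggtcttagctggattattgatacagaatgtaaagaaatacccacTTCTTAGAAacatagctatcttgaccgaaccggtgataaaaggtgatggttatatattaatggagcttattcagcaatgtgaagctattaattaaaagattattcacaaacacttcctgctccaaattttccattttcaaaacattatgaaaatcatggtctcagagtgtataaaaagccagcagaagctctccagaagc

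The windows of Chil3 and Chil4 were identical at 203 of 279 aligned positions, and both held the same 9 letters. How reads shared by such related genes were counted is not described. Both motifs, TTCNNNNGAA and TTCNNNGAA, read the same on either strand. The first, present before Retnla, was found before 6.76% of 27025 genes with a window and before 9 of the 62 DEGs that had one, and the second, present before Chil3 and Chil4, before 8.13% and before 8 of 62. A match is a description of the letters and not a measured binding site.

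Chil4 had 1 read over the 3 vehicle libraries and 198, 197, 258 and 500 CPM in the IPFc libraries of mice 1 to 4 (16105 reads, a ratio of 11721 with an exact 95% counting interval of 2103 to 462990, adjusted p = 1.1e-12). In the epithelial libraries Chil4 averaged 0.439 CPM with vehicle and 3909 CPM with IPFc, and the epithelial share times that level came to 179 to 448% of the value in the fibroblast library, more than was measured. Retnla was at 13.5, 26.9 and 30.8 CPM with vehicle and at 119, 221, 232 and 262 CPM with IPFc (log2 fold change 3.18 ± 0.35, adjusted p = 2.3e-04), with 967 CPM in epithelial IPFc libraries and 66.5 to 117% of its fibroblast value matched by the epithelial share. Chil3 was higher in fibroblast libraries with vehicle and in epithelial libraries with IPFc (6.65 CPM against 6.15 CPM in fibroblasts), with 7.25 to 154% of its fibroblast value matched by the epithelial share. It was at 2.44, 0.155 and 0.256 CPM against 15.2, 0.749, 5.25 and 3.41 CPM (log2 fold change 3.45 ± 0.44, adjusted p = 9.9e-04), and its groups overlapped. Retnla did not pass without mouse 4 (adjusted p = 0.0576) and Chil3 not without mouse 3 (adjusted p = 0.0538), while its log2 fold change was 4.44 without mouse 1. Chil3 is also on the list of macrophage and leukocyte markers, and of the 19 tested it was the only 1 called. Its highest library was that of mouse 1 under vehicle, IPFc, TGF-β and EC (2.44, 15.2, 3.49 and 2.35 CPM). Leukocyte RNA as a source of Chil3 was not tested. Expression of Chil4, Retnla and Chil3 by the fibroblasts and RNA from epithelial cells cannot be told apart in these libraries. Of other STAT6 targets, the chemokine Ccl11 (0 to 0.0774 CPM against 0.542 to 1.03 CPM, adjusted p = 0.0757) and the decoy receptor Il13ra2 (2.63 to 4.88 CPM against 5.97 to 11.5 CPM, adjusted p = 0.0785) had groups that did not overlap but missed the threshold, and Arg1, arginase, had a log2 fold change of -0.02 (adjusted p = 1).

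Other DEGs with their higher level in epithelium followed the same pattern. Slc26a4, the anion exchanger pendrin, was at 3.91 to 5.11 CPM with vehicle and 45.9 to 110 CPM with IPFc (log2 fold change 3.94 ± 0.27, adjusted p = 7.7e-07), and epithelial libraries held 4.77 and 241 CPM on average. Clca1, a secreted protein of goblet cells, had 0 reads with vehicle and 353 reads with IPFc, at least 85.6-fold higher, with 105 CPM in epithelial IPFc libraries. For both genes the epithelial share accounted for much or all of the fibroblast value (44.8 to 92.4% and 250 to 431%). Sema7a, a membrane-anchored semaphorin, differed from them, since the share accounted for 19.7 to 54.2% of its fibroblast values of 14.1, 14.5, 18.7 and 15.9 CPM, against 3.93, 5.65 and 5.83 CPM with vehicle (log2 fold change 1.71 ± 0.18, adjusted p = 1.3e-04). Of the lower genes, Klk10 and Klk13, kallikrein-related peptidases, Fam189a2 and Selenbp1, a selenium-binding protein, had log2 fold changes of -2.16 ± 0.33, -1.33 ± 0.24, -1.46 ± 0.29 and -1.15 ± 0.19. Klk10 passed without mouse 3 and not without mouse 4 (adjusted p = 0.203), and the other 3 lost their call in both cases (adjusted p = 0.134 to 0.725). Klk13 and Fam189a2 did not pass without mouse 2 (adjusted p = 0.0566 and 0.165), nor Fam189a2 without mouse 1 (0.0862). When the epithelial share was subtracted from every library, none of the genes of this group with a value passed. Slc26a4 moved to 2.40 (adjusted p = 0.825), Sema7a to 4.63 (0.445), Klk10 to -0.20, Klk13 to -0.75 and Selenbp1 to 0.32 (adjusted p = 1 each).

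Genes of matrix breakdown and chemoattraction were among the DEGs. Of 26 matrix proteases and inhibitors, 2 rose (beside 0.305% of all genes), Mmp13 and Mmp10, which encode collagenase 3 and stromelysin 2. Mmp13 was at 1.89, 3.48 and 1.60 CPM with vehicle and 7.77, 8.62, 7.45 and 6.43 CPM with IPFc (log2 fold change 1.69 ± 0.31, adjusted p = 0.0171). Mmp10 was at 2.99, 4.10 and 3.65 CPM against 6.45, 7.94, 9.54 and 10.9 CPM (log2 fold change 1.35 ± 0.25, adjusted p = 0.0171). Both had groups that did not overlap and were nearly absent from epithelial libraries (0.347 and 0.572 CPM with IPFc), whereas Mmp2, Mmp3 and Mmp9 had log2 fold changes of -0.12, -0.07 and 0.26. Neither Mmp13 nor Mmp10 passed without mouse 3 (adjusted p = 0.0565 for Mmp13 and 0.324 for Mmp10) or mouse 4 (0.298 and 0.336), and Mmp13 did not without mouse 2 (0.0614). The window before Mmp13 is shown because it holds an AP-1 motif, TGANTCA, which reads the same on both strands and occurs before 7.82% of genes and before 12 of the 62 DEGs with a window.

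Mmp13, chr9:7272264-7272513, plus strand: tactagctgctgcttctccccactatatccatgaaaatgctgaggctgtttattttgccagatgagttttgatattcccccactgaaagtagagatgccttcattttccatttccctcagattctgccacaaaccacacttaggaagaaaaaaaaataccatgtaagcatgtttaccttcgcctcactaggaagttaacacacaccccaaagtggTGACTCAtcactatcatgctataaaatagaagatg

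Among 18 chemokines tested, Ccl8 rose and Cxcl12 fell, beside 0.305% of all genes called higher and 0.144% called lower. By edgeR 6 of the 18 had an unadjusted p below 0.05, beside 1174 of all 18048 genes. Ccl8, a ligand of CC chemokine receptors, was at 21.2, 10.5 and 11.5 CPM with vehicle and 51.3, 38.7, 29.4 and 38.4 CPM with IPFc (log2 fold change 1.59 ± 0.26, adjusted p = 0.00853). Cxcl12, the stromal chemokine that binds Cxcr4, was at 835, 732 and 616 CPM against 503, 401, 380 and 332 CPM (log2 fold change -0.84 ± 0.13, adjusted p = 0.00441). The groups of both genes did not overlap, and neither gene passed without mouse 3 (adjusted p = 0.197 for Ccl8 and 0.134 for Cxcl12) or mouse 4 (0.105 and 0.161). The neutrophil attractant Cxcl1, which encodes KC, the mouse counterpart of IL-8, varied more between mice than between treatments, at 48.2, 203 and 489 CPM with vehicle and 74.4, 163, 180 and 421 CPM with IPFc (log2 fold change -0.04 ± 0.39, adjusted p = 1), and Ccl2 was at 180.5, 293 and 527 CPM against 242, 353, 377 and 467 CPM. Of the other cocktail factors, Il33 was at 33.4 to 36.2 CPM against 50.0 to 80.7 CPM without overlap (log2 fold change 0.76 ± 0.19, adjusted p = 0.143), and Tgfb1 had a log2 fold change of 0.36 (adjusted p = 0.539). By edgeR, 0 of 6 tested factors and 0 of 14 tested receptors of the cocktail passed (2 and 4 at an unadjusted p below 0.05), against 0 and 3 by DESeq2. The receptor chains Il4ra, Il13ra1, Il1r1, Tnfrsf1a, Tgfbr1 and Tgfbr2 were all measured in the 7 libraries at 39.2 CPM or more. Of the 17 receptor genes listed, 14 had enough reads to be tested, and 9 of the 14 had their higher level in fibroblasts. Which cells the receptor reads came from was not tested.

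Of 29 NF-κB targets tested, 2 were higher (C3 and Lcn2, beside 0.305% of all genes), 0 were lower and the median log2 fold change was -0.001. Lcn2, lipocalin 2, was at 10.3, 12.8 and 13.3 CPM with vehicle and 21.6, 33.2, 30.1 and 26.8 CPM with IPFc (log2 fold change 1.12 ± 0.23, adjusted p = 0.046), and did not pass without mouse 2, 3 or 4 (adjusted p = 0.0509, 0.617 and 0.498). Nfkbia and Tnfaip3, the feedback inhibitors of the pathway, had log2 fold changes of -0.28 and -0.42 (adjusted p = 1 and 0.996). Of 27 interferon-stimulated genes, Gbp2 (-0.66 ± 0.12, adjusted p = 0.0218) and Gbp3 fell, Gbp2 with overlapping groups and no call without mouse 2, 3 or 4 (adjusted p = 0.1503, 0.488 and 0.345), and Ifit1, Ifit2 and Ifit3 had values of 0.42, -0.26 and -0.70 that did not pass. Called lower were 0.144% of all genes, and 4 of the 27 had an unadjusted p below 0.05 by edgeR.

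No gene of the myofibroblast lists passed against vehicle. Acta2, smooth muscle actin and the usual marker of myofibroblasts, was at 55.7, 55.9 and 43.5 CPM with vehicle and 53.3, 49.8, 70.6 and 39.3 CPM with IPFc (log2 fold change 0.09 ± 0.12, adjusted p = 1). Of 24 contractile genes tested, 0 passed by edgeR or DESeq2 (3 at an unadjusted p below 0.05 by edgeR), with a median of 0.08. Of 26 TGF-β targets and feedback genes, 0 passed by edgeR and 3 by DESeq2 (5 at an unadjusted p below 0.05 by edgeR), with a median of 0.02. Pmepa1, a feedback inhibitor of SMAD signalling, came close, at 83.8, 116 and 92.4 CPM against 107, 114, 156 and 156 CPM (log2 fold change 0.56 ± 0.14, adjusted p = 0.108), with overlapping groups.

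Collagens likewise passed in 1 case. Col1a1 was at 1397, 1254 and 1394 CPM with vehicle and 1434, 1334, 1748 and 1199 CPM with IPFc (log2 fold change 0.11 ± 0.15, adjusted p = 1), and of 23 collagens tested, 0 rose and 1, Col6a2, fell (-0.65 ± 0.13, adjusted p = 0.0354, and 0.165, 0.140 and 0.717 without mouse 2, 3 or 4). Called lower were 0.144% of all genes. By edgeR 7 of the 23 had an unadjusted p below 0.05, beside 1174 of all 18048 genes. Col6a1, which encodes the partner chain of collagen VI, had a log2 fold change of -0.60 ± 0.13 and an adjusted p of 0.0503. Lox, the lysyl oxidase that crosslinks collagen and elastin, was the exception among 23 genes of collagen processing. It was at 105, 124 and 86.4 CPM with vehicle and 231, 225, 190 and 160 CPM with IPFc (log2 fold change 0.92 ± 0.15, adjusted p = 0.00681), without overlap, and did not pass without mouse 3 or 4 (adjusted p = 0.114 and 0.208), while Loxl1, Loxl2 and Plod1 had values of -0.10, -0.27 and 0.36 that did not pass. Of 30 matrix glycoproteins, Spp1 alone rose, beside 0.305% of all genes. By edgeR 5 of the 30, and 3 of the 23 genes of collagen processing, had an unadjusted p below 0.05. Tnc (0.89 ± 0.25, adjusted p = 0.223) and Fbn1 (0.68 ± 0.27, adjusted p = 0.605) had higher means that did not pass the test.

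Single genes passed in the other lists. Dkk3, a secreted glycoprotein of the Dickkopf family, fell by 0.80 on the log2 scale (adjusted p = 0.00671) and was the only one of 27 Wnt genes to pass, Ptn was the only one of 28 growth factors, Lpl, lipoprotein lipase (-0.94 ± 0.19, adjusted p = 0.0394), the only one of 18 genes of lung fibroblast subtypes, and Slc2a1, the glucose transporter GLUT1 (0.59 ± 0.11, adjusted p = 0.0216), the only one of 26 genes of glycolysis and hypoxia. None of these 4 passed without mouse 3 or mouse 4 (adjusted p = 0.104 to 0.602), with Lpl and Slc2a1 also lost without mouse 2 (0.138 and 0.122). The 1 call in each list stands beside 0.449% of all genes. At an unadjusted p below 0.05 by edgeR, the 4 lists held 3, 10, 6 and 6 genes in the order named, beside 1174 of all 18048. Of the 28 growth factors, 19 had a log2 fold change above 0, with a median of 0.21. By edgeR, 0 genes passed in the lists of IL-6 and STAT3, prostaglandins, BMP, Hedgehog and Notch, DNA replication and mitosis, p53 targets, ER stress and cholesterol synthesis. At an unadjusted p below 0.05 these held 2, 4, 1, 2, 2, 2, 5 and 3 genes in that order, and DESeq2 called 1, 0, 1, 0, 0, 0, 2 and 0. Of 28 cholesterol and fatty acid genes, 27 had a log2 fold change above 0 with a median of 0.20, as had 26 of 30 replication and mitosis genes and 23 of 26 of glycolysis and hypoxia, against 8923 of all 18048. Their level was higher in fibroblasts for 1 of the 28, 1 of the 30 and 18 of the 26. Of the 81 DEGs, 62 were in no list. Among these, chosen after their values were seen, Sema3a, a secreted axon guidance factor (0.87), Pi15, a protease inhibitor (1.11), Slc7a2, a transporter of cationic amino acids (1.28), the chemokine receptor Ccr1 (1.76) and Fam20c, a kinase of secreted proteins (0.70), were higher with IPFc, and Enpp2, which encodes autotaxin (-0.996), and the water channel Aqp1 (-0.73) were lower. Cd53, Cd33, Lilr4b, Havcr2 and Tpsab1, genes known from immune cells, were higher as well. Their means were 2.97, 0.485, 3.88, 17.0 and 0.125 CPM with vehicle and 6.89, 1.93, 12.0, 31.5 and 1.32 CPM with IPFc. Of the 19 leukocyte markers tested, 1 was called higher and 0 lower, beside 0.305% and 0.144% of all genes. Which cells these reads came from was not tested.

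To see how the cocktail differed from TGF-β, which was 1 of its 9 factors, IPFc was compared with TGF-β alone in the same model. There were 3141 DEGs (17.4% of genes tested), 2179 higher (12.1%) and 962 lower (5.33%) with IPFc. Epithelial RNA moved with this comparison, because 29 of 30 epithelial markers were higher with IPFc (median log2 fold change 3.69), so counts are also given after the epithelial share was subtracted from each library, which left 610 DEGs. The TGF-β dose within the cocktail is not known from the sources used here, and doses can therefore not be matched.

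Contractile genes were mostly lower with IPFc than with TGF-β. Acta2 was at 490, 398, 577 and 340 CPM in the TGF-β libraries of mice 1 to 4, against at most 70.6 CPM with IPFc (IPFc against TGF-β -3.16 on the log2 scale, adjusted p = 2.0e-11, and -2.88 with 5.3e-06 after subtraction). Tagln, transgelin, averaged 99.6 ± 22.7 CPM (SD, n = 4) with TGF-β and 7.33 ± 2.18 CPM (SD, n = 4) with IPFc. Of the 24 contractile genes, 18 were lower and 1 higher with IPFc than with TGF-β (9 and 1 after subtraction). Of 23 collagens, 14 were lower and 3 higher (7 and 3 after subtraction), with Col1a1 at 3672 to 4915 CPM under TGF-β (-1.63 on the log2 scale, adjusted p = 1.4e-07, against -1.32 and 0.00112 after subtraction) and Col7a1, the chain of anchoring fibrils, at 443 to 557 CPM against 47.3 to 66.1 CPM. Of 29 NF-κB targets, 21 were higher and 0 lower with IPFc (12 and 0 after subtraction). C3 was at its lowest under TGF-β, at 20.1, 26.7, 23.5 and 25.9 CPM (log2 fold change 6.50, adjusted p = 9.0e-13, and 7.04 after subtraction). With the epithelial share as a covariate, which nearly coincides with the TGF-β group, 25 DEGs were left, among them C3, Acta2, Tagln, Itgb3, Dmp1 and Sema7a.

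Levels under TGF-β and under IPFc can be read side by side for genes that rose with the cocktail. Itgb3 averaged 18.3 CPM with vehicle, 45.5 CPM with IPFc and 205 CPM with TGF-β, and Dmp1 reached 221 CPM with TGF-β. Spp1 averaged 6965, 14101 and 22340 CPM in that order, and the difference between IPFc and TGF-β (-0.75, adjusted p = 0.00139) did not pass after subtraction (-0.42, adjusted p = 0.204). Lox averaged 105, 201 and 260 CPM, and 206 CPM with EC. The difference of Lox between IPFc and TGF-β likewise did not pass after subtraction (-0.12, adjusted p = 1). Csf2rb averaged 30.0 CPM with vehicle and 27.1 CPM with TGF-β and was higher with IPFc than with either TGF-β (1.35, adjusted p = 2.4e-06) or EC (1.32, adjusted p = 4.5e-05). Ccl8 averaged 14.4 CPM with vehicle, 13.2 CPM with TGF-β and 13.9 CPM with EC against 39.5 CPM with IPFc.

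**Figure D4:**
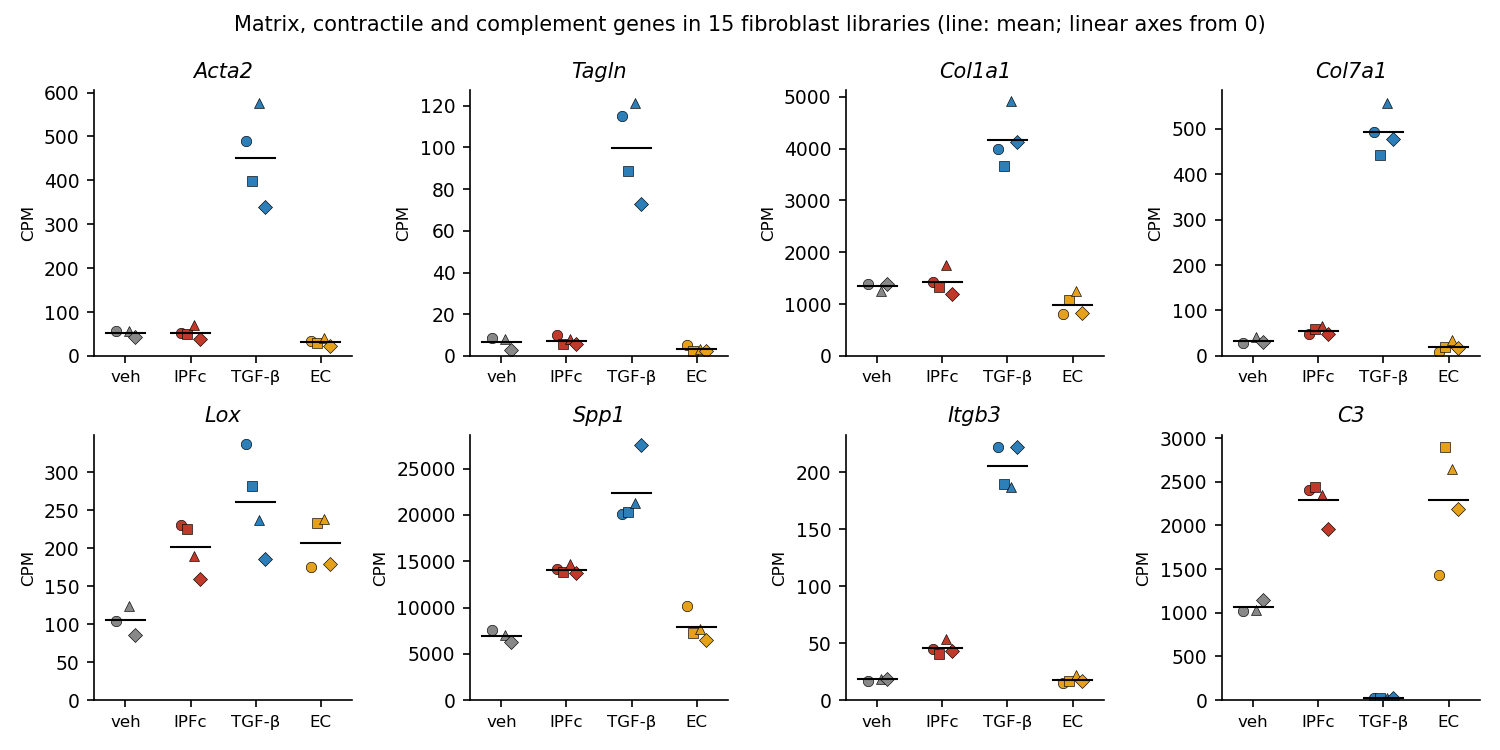
Each panel plots the CPM of 1 gene in the 15 fibroblast libraries on a linear axis from 0, by treatment, with the mouse given by the symbol and a line at the mean. Acta2, Tagln, Col1a1 and Col7a1 stand apart under TGF-β only. Lox is above vehicle with IPFc, TGF-β and EC, and Spp1 and Itgb3 are above vehicle with IPFc and TGF-β. C3 is above vehicle with IPFc and EC and near 24 CPM with TGF-β.

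Against EC, which per the labels shared TNF-α, IL-1β and IL-8 with it, IPFc gave 1885 DEGs (10.4%), 751 higher (4.16%) and 1134 lower (6.28%), and 22 after the epithelial share was subtracted. Of 30 epithelial markers, 22 were lower with IPFc, and subtraction also raised the biological coefficient of variation from 16.9 to 50.8%. The epithelial share was 41.4 to 60.7% in the EC libraries, and 55 DEGs were left with the share as a covariate. C3 had a log2 fold change of 0.01 between the cocktails (adjusted p = 0.978), and C4b and Lox had differences of -0.28 (adjusted p = 0.148) and -0.08 (adjusted p = 0.758). Lcn2 was far higher with EC, at 255 to 351 CPM against 21.6 to 33.2 CPM (log2 fold change of IPFc against EC -3.49, adjusted p = 8.1e-08). Itgb3 (1.35, adjusted p = 9.6e-06) and Spp1 (0.81, adjusted p = 0.00218) were higher with IPFc, and their EC libraries were at 14.7 to 21.9 CPM and 6542 to 10111 CPM. These gene values, and that of Csf2rb against EC above, were taken without subtraction. The epithelial share was 12.5 to 32.3% in the IPFc libraries, so it differed between the cocktails as well. Its part in these gene values was not tested.

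**Figure D5:**
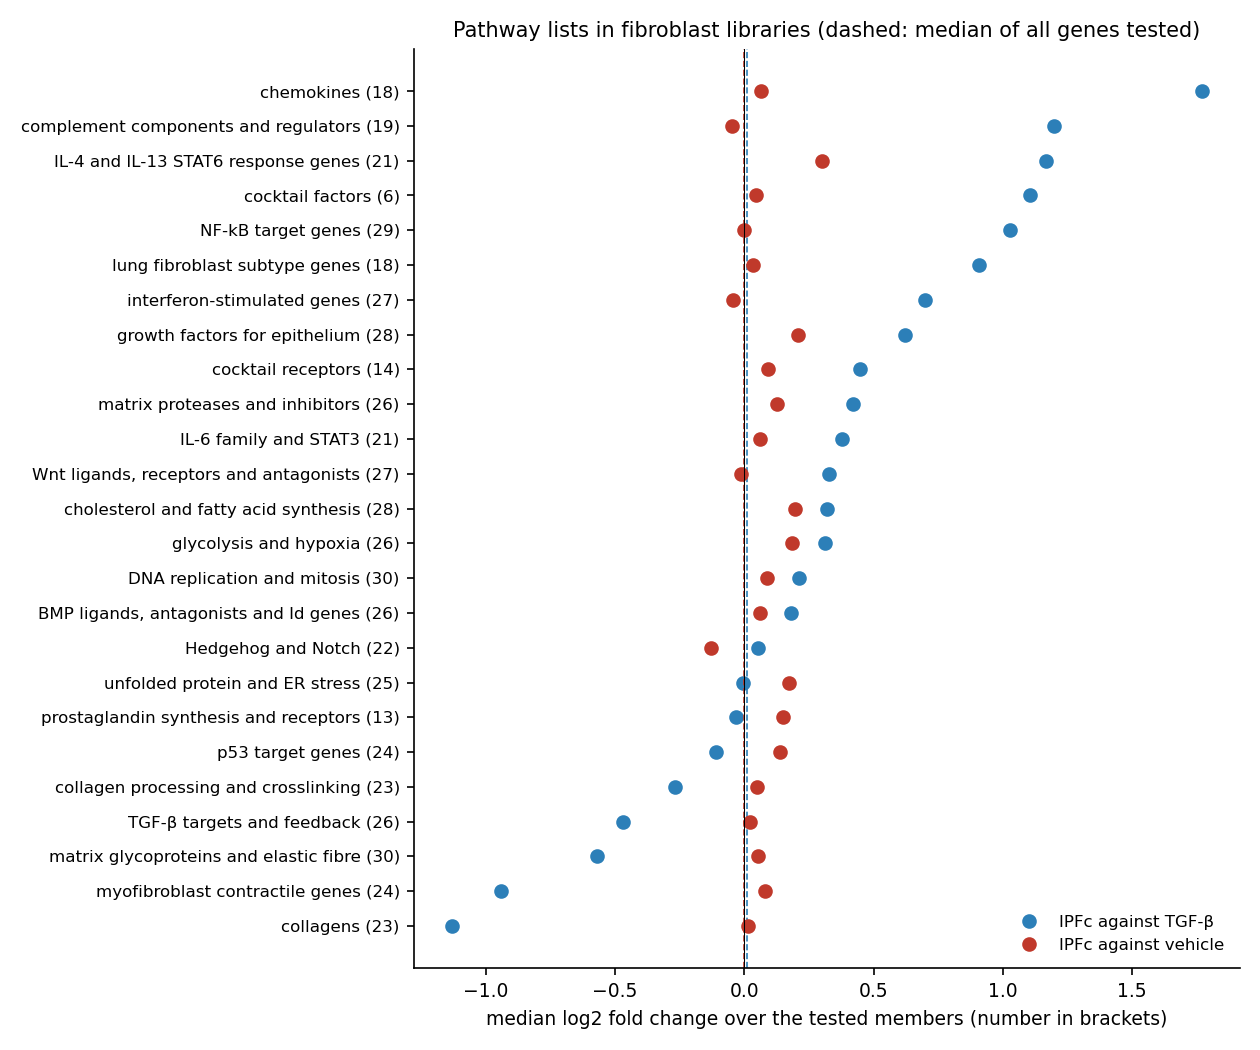
Each row is 1 of 25 pathway lists with its number of tested genes, and the points give the median log2 fold change of IPFc against vehicle (red) and against TGF-β (blue) beside the median of all genes tested (dashed). The red medians lie between -0.13 and 0.30, whereas the blue ones run from -1.13 for collagens to 1.77 for chemokines, a comparison in which the epithelial share differed as well.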

How the data were processed

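The members, gene lists and tests were chosen with earlier results of these data known. Adapters had been removed with Trimmomatic 0.30 and the reads mapped by the authors to a mouse reference (GRCm39 in the submitters' processing notes, GRCm38 in the study's methods), and the deposited values are raw counts, whole numbers of reads per Ensembl gene, for 55487 genes in each library. The counter is not given in the sources used here, and the tool named in the notes for the authors' own tests is DESeq2 1.34.0.

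From these counts, genes with a mean count of at least 1 over the 15 fibroblast libraries were tested with edgeR 4.0.16 in R 4.3.3 (TMM, two-sided quasi-likelihood test, mouse as block, Benjamini-Hochberg adjustment over all genes). The 15 libraries shared 1 estimate of the spread, because the 7 alone leave 2 residual degrees of freedom. The biological coefficient of variation was 16.9%. Standard errors are the log2 fold change divided by the square root of F. The pairing follows the labels, which give cultures of a number to 1 mouse. Deviations of vehicle and IPFc libraries from their group means correlated by 0.23, 0.01 and 0.26 within mice 1, 3 and 4. The mouse 2 IPFc library entered through the other libraries of that mouse. The chi-square per degree of freedom between libraries of a group was 7.61 to 38.7, so none was a repeat. The titles of 1 vehicle and 2 IPFc libraries end in R, a mark that is not explained.

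The epithelial share used markers with at least 50 CPM in the partner library. The epithelial TGF-β library of mouse 1 was not analysed here, and the mean of the other mice replaced it. For subtraction, each gene's CPM in the partner was multiplied by the share and taken off. Text genes were the 12 of each direction with the smallest p among DEGs over 1 in log2 fold change and higher in fibroblasts, 4 of each direction higher in epithelium, all cocktail factors and receptors, and of every list the first 3 and the 4 with the smallest p. The 25 pathway and 5 marker lists were written from general knowledge, and no set test was run. Sequences came from RefSeq windows (GRCm38.p6), which existed for 62 of 81 DEGs. Alternatives were other filters and normalization, DESeq2 1.42.0, no block, fewer libraries, robust estimation and the share as covariate or subtracted. The tests were checked on 15 simulated fibroblast libraries. Of genes changed by 1 on the log2 scale, 61 of 100 were called in IPFc against vehicle, and 82 of 99 changed by 2, with 8 false calls. A list with 0 calls can therefore hold changed genes. The simulation had 1 spread for all genes and no differences in epithelial share. The result of 1 gene that the naming rule covers is not reported here.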

Additional observations from a re-analysis of the deposited data

Results flagged for a closer look

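For 48 sets of 4 IPFc fibroblast libraries (the 27 genes named by their p, the cocktail factors and receptors, and the epithelial share), the gap between the most extreme library and the nearest other was compared with Dixon's critical value, and 2 sets passed, where chance passes about 1 in 20. Htr1b, a serotonin receptor, was at 13.9 CPM in the IPFc library of mouse 4, below the other 3 at 19.8 to 20.8 CPM and above every vehicle library. Dmp1 was at 6.98 CPM in the IPFc library of mouse 3, above the other 3 at 4.27 to 4.73 CPM. Without those mice the log2 fold changes were 1.30 for Htr1b and 2.19 for Dmp1.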

How the results depend on the processing

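The number of DEGs between IPFc and vehicle (81) changed with how the spread was estimated and with the mice that entered. It was 229 with the replicate block in the 7 libraries alone, where a gene's own spread did not enter the test, 35 with no replicate block, 47 with no block in the 7 libraries, 183 with DESeq2, 251 with no filter on low counts, where the same held, and 263 without the EC library of mouse 1, and 14 to 128 with each mouse left out. For DEGs over 1 in log2 fold change (55) the same settings gave 117, 28, 36, 89, 110, 94 and 14 to 69. All 81 were among the calls of the 7-library block, of DESeq2, of the unfiltered test and without that EC library, and all 35 without the block were among the 81. DESeq2 size factors, another filter, robust estimation and the share as covariate gave 82, 83, 84 and 59. After subtraction of the epithelial share, which raised the coefficient of variation to 50.8%, 1 DEG was left, and 1 over 1 in log2 fold change. In the 7 libraries alone it gave 9 and 9 with the block, of which 3 were among the 81, and 0 and 0 by edgeR with no block, with 788 genes at an unadjusted p below 0.05. Of the 27 genes named by their p, Selenbp1 turned from -1.15 to 0.32 (adjusted p = 1) after subtraction, Chil4 and Clca1 gave no value, and the others kept their direction with Ivl alone past the threshold, Klk10 at -0.20 and Retnla at 11.15 (adjusted p = 1 each). DEGs against TGF-β (3141) fell to 610 after subtraction and 25 with the share as covariate and were 1985 to 3786 with a mouse left out. DEGs against EC (1885) fell to 693 with no block, 22 after subtraction and 55 with the covariate and were 665 to 2024 with a mouse left out. The lowest counts against either treatment came without mouse 4. DESeq2 called 6 IL-4 and IL-13 genes in place of 3, 4 collagens in place of 1 and 3 cocktail receptors and 3 TGF-β targets in place of 0 by edgeR, which had 4 and 5 at an unadjusted p below 0.05. The cause was not tested. Genes under about 1 CPM rest on few reads at this depth.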
